A study of Drosophila melanogaster with 18 samples.

Results

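Ageing of the male fly head after the first weeks of adult life was followed by comparing heads of 45-day-old with heads of 15-day-old wild-type males of Drosophila melanogaster. Each age was represented by 3 libraries of polyadenylated RNA, so the comparison used 6 of the 18 libraries of the study. It covered the 8921 of 10884 genes in the male table that reached a normalised read count of at least 10 in at least 3 of the 12 male libraries. The males were of the control line w1118, which lacks the eye pigment transporter encoded by white and therefore has white eyes, and carried no transgene. Flies were kept at 25 °C and collected at days 3, 15, 30 and 45 after eclosion. The study as a whole asked how the forkhead transcription factor FOXO, encoded by foxo, shapes transcription in the ageing head, and its other libraries came from females at day 3, of the same control line or homozygous for the foxo allele c431. For the females the authors' deposited table of mutant against wild type was used. Libraries from days 3 and 30 entered the model only to share 1 estimate of the spread and to place the change between 15 and 45 days on a time course. Whether replicates are separate collections of flies is not stated in the labels, and p-values therefore cover the differences among these libraries alone, which may be technical.

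The fly head holds the compound eyes, the brain with its glia, muscle, cuticle, and a layer of fat body that acts as liver and fat store and secretes most immune peptides. Bacterial cell wall fragments are sensed by peptidoglycan recognition proteins, which act through the Imd and Toll pathways and their NF-kB factors to switch on genes of antimicrobial peptides. In the photoreceptors light converts rhodopsin, which drives a G protein, phospholipase C and the TRP channels, and the cell signals to the brain with histamine. FOXO is held in the cytoplasm when insulin-like peptides activate the kinase Akt and enters the nucleus when insulin signalling is low.

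The 12 male libraries held between 2999956 and 4102364 reads recovered from the deposited values, a depth at which a normalised count of 10 rests on about as many reads. The tissue label was checked against marker genes. All 10 photoreceptor markers and 9 of 10 neuronal markers were found in the table (para was not used here). Of 7 ovary markers only 1 was found, at no more than 3.35 normalised reads in a library. Of 9 testis and accessory gland markers 6 were found, which summed to between 2.86 and 78.0 normalised reads, the highest value being that of day 45 replicate 1. On principal components of the 6 libraries, the first, with 43.6% of the variance, separated the ages without overlap. The second, with 24.2%, set day 45 replicate 3 apart at 21.1, with the other day 45 libraries at -15.3 and -8.49 and day 15 replicate 1 at 11.8. In replicate 3 of day 45 the median of the antimicrobial peptide genes was highest and that of the phototransduction genes least reduced, so values of each library are given below.

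From day 15 to day 45, transcripts of immune effectors rose and transcripts of phototransduction and of synaptic transmission fell. With limma on log2 values, 385 genes were higher at day 45 (4.32% of those tested) and 373 were lower (4.18%), together 8.5%, at an adjusted p under 0.05. Most changes were small, with a median log2 change of 0.57 among the higher and -0.42 among the lower genes, and -0.004 over all genes tested. At least 2-fold changes were found for 83 of the higher and 15 of the lower genes, and without day 45 replicate 3 for 81 and 42. Fewer genes were called without day 15 replicate 2 (219 higher and 183 lower), day 15 replicate 3 (233 and 188), day 45 replicate 1 (247 and 232) or day 45 replicate 2 (254 and 218). A call given below as lost in an alternative did not pass under another setting or without 1 of the libraries. Counts in gene lists below are to be read beside the shares of 4.32% and 4.18%, which a few calls in a list may not exceed by much. In 379 of the higher and 363 of the lower genes the libraries of both ages did not overlap. This was counted among called genes only, for which the call itself makes separation likely, and it adds no support to the calls. By the counts past 2-fold the tail of large changes was on the higher side, as the plot of change against level shows.

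**Figure D1:**
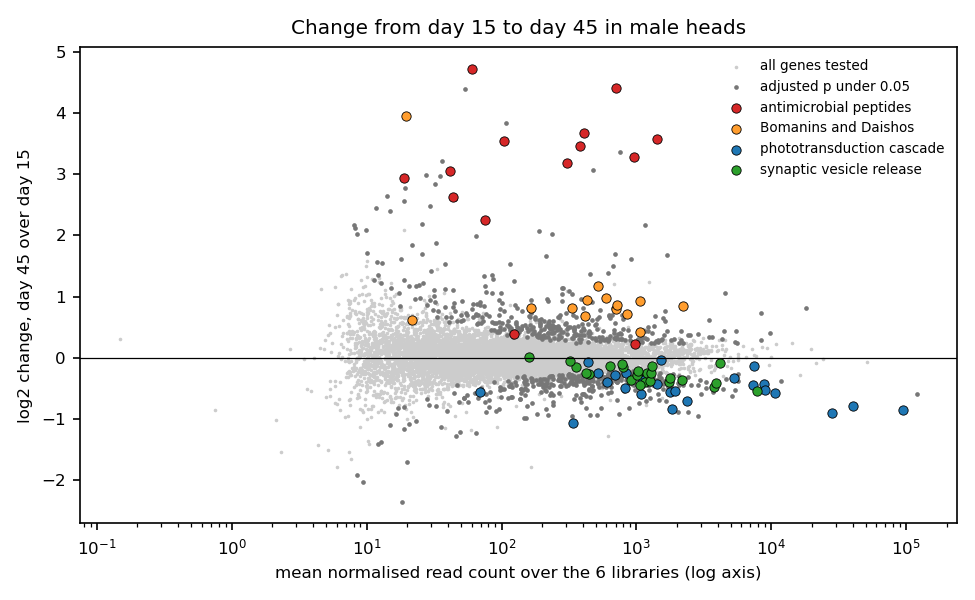
Each point is 1 of 8921 genes, placed by its mean normalised read count over the 6 libraries (log axis) and its log2 change from day 15 to day 45; darker points passed an adjusted p under 0.05 and coloured points are members of 4 gene lists. Antimicrobial peptide genes reach a log2 change of 4.72, while the phototransduction genes, among them some of the most abundant transcripts of the head, lie below 0.

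Antimicrobial peptides, small secreted proteins that kill bacteria and fungi, showed the largest rise. Of 14 genes tested, 12 were higher and 0 lower (85.7%, beside 4.32% higher of all genes tested), with a median log2 change of 3.22. The filter took any 3 of the 12 libraries, so a gene could enter through its day 45 values alone. The 11 of them averaging at least 50 normalised reads over the 6 libraries had a median of 3.45. Day 45 values enter that mean too, so this does not remove the limit. CecA2, for example, averaged 8.20 at day 15 and 60.8 over the 6 libraries. Drosocin, encoded by Dro (2R:14745961-14746714, dm6), stood at 116, 41.9 and 29.2 normalised reads in the day 15 libraries and at 1293, 481 and 2277 in those of day 45, each in the order of replicates 1 to 3. Every day 45 library lay far above the highest of day 15, and replicate 2 was the lowest of day 45 (log2 change 4.40, SE 0.55, limma adjusted p = 7.76e-05).

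The diptericin DptA, active against Gram-negative bacteria, gave 140.4, 32.5 and 29.2 at day 15 and 707, 349 and 1191 at day 45 (log2 change 3.67, SE 0.50, adjusted p = 0.000181 by limma). AttC, an attacin, went from 582, 93.2 and 123 to 2470.4, 1127 and 4141 (log2 change 3.58, SE 0.54, adjusted p = 0.000453 by limma), and the antifungal metchnikowin Mtk from 302, 114 and 117 to 1626, 835 and 2746 (log2 change 3.28, SE 0.39, adjusted p = 5.67e-05 by limma). In these 3 genes replicate 1 was the highest library of day 15, replicate 3 was the highest of day 45, and the ages did not overlap. DptB (3.45), AttB (3.17), CecA1 (3.55) and CecA2 (4.72) rose with them. CecA2 was at 0 in day 15 replicate 2 and lost its call under DESeq2, and reads of the cecropins CecA1 and CecA2, of the diptericins and of the attacins AttA and AttB may be shared between close copies. The 2 members that did not pass were the drosomycin-like genes Drsl4 (0.39) and Drsl5 (0.23).

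Across libraries the median change of these peptides against the day 15 mean was 3.32, 2.35 and 4.20 in replicates 1, 2 and 3 of day 45. The libraries of this age thus differed widely, and each of them stood above day 15. Without replicate 3 the median was 2.80 with 11 genes higher, and without day 15 replicate 1 it was 3.80 with 12 higher. The head fat body markers summed to between 24395 and 28599 normalised reads at day 15 and to between 30978 and 34928 at day 45, with 1 of 9 tested higher and 1 lower, and their part in the immune result was not tested. In bulk RNA a change in the number of cells of a type and a change in RNA per cell cannot be told apart, here or below.

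**Figure D2:**
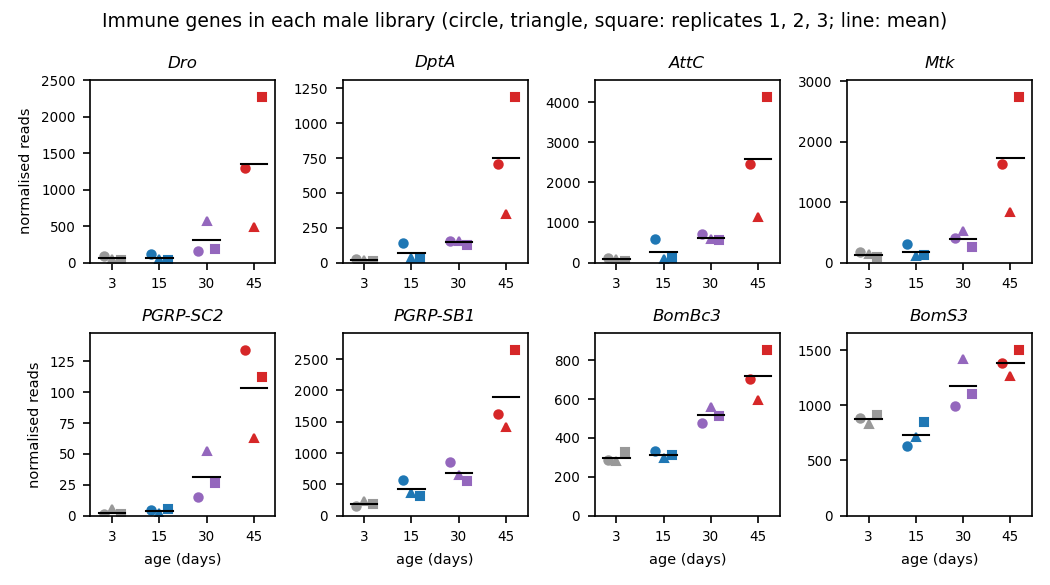
Normalised reads of 8 immune genes in each of the 12 male libraries by age in days; circles, triangles and squares are replicates 1, 2 and 3 and the line is the mean. For Dro the day 45 libraries lie between 481 and 2277 and those of day 15 between 29.2 and 116, and BomS3 shows a smaller rise from values that at day 15 lie below those of day 3.

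Bomanins and Daishos, short peptides released into the haemolymph mainly through the Toll pathway, rose as well, but less. Of 14 tested, 12 were higher and 0 lower, with a median log2 change of 0.83. BomBc3 went from 335, 295 and 312 to 705, 597 and 855 (log2 change 1.18, SE 0.11, adjusted p = 9.41e-06 by limma). BomS1 (0.97), Dso2 (0.94), BomS3 (0.92) and BomS2 (0.86) followed, with no overlap between ages. The Bom genes of one cluster on 2R are close copies, among which reads may be shared.

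Peptidoglycan recognition proteins were higher for 6 of 9 genes tested and lower for 0, with a median of 0.85. The secreted amidases, which cleave peptidoglycan, included both the steepest and one of the most abundant changes. PGRP-SC2 (2R:8716950-8717695, dm6), which dampens Imd signalling, went from 4.77, 2.09 and 5.01 to 134, 62.9 and 113 (log2 change 4.39, SE 0.47, adjusted p = 2.53e-05 by limma). PGRP-SB1 went from 571, 364 and 318 to 1622, 1415 and 2652 (log2 change 2.17, SE 0.23, adjusted p = 2.35e-05 by limma). The day 45 libraries lay far above those of day 15 in both, although few reads stood behind PGRP-SC2 at day 15. PGRP-SC2 stayed below 10 in every day 3 and day 15 library, so it entered the test through its day 30 and day 45 values alone. Its mean of 53.7 over the 6 libraries came almost wholly from day 45. PGRP-SD and PGRP-SA, which take part in sensing bacteria upstream of Toll, rose by log2 values of 2.02 and 0.86, and the amidase PGRP-LB by 0.85. The membrane receptor of the Imd pathway, PGRP-LC, did not pass (330.4, 278 and 301 at day 15 and 329.9, 301 and 355 at day 45, log2 change 0.12).

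Genes of the Imd and Toll pathways were examined next. Of 16 Imd pathway genes tested 1 was higher and 1 lower, with a median of 0.07. Rel, the NF-kB factor of this pathway, rose from 500.4, 485 and 494 to 742, 654 and 968 (log2 change 0.66, SE 0.13, adjusted p = 0.00334 by limma), and the kinase gene bsk, which encodes JNK, was lower (-0.28, a call lost in 9 alternatives). Of 19 Toll pathway genes 6 were higher (31.6%, beside 4.32% of all genes tested) and 0 lower, with a median of 0.21. The count was 2 without day 15 replicate 2 or day 45 replicate 2 and 3 without day 15 replicate 1. The adaptor Myd88 (0.44, lost in 4 alternatives), the NF-kB factor dl (0.28, lost in 7) and its inhibitor cact (0.27, lost in 4) were among the 6 higher genes. So were the recognition proteins PGRP-SD and PGRP-SA, counted above too. The calls of Myd88, dl and cact were all lost without day 15 replicate 2 and without day 45 replicate 2. Of 10 Turandot and JAK/STAT genes 0 passed with limma, edgeR or DESeq2 and 2 had an unadjusted p under 0.05, and TotA, a stress peptide, overlapped between ages.

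Blood cell and melanization genes were higher for 5 and lower for 1 of 19 tested, with a median of 0.27. The opsonin-like Tep2 (0.52), Spn27A (0.46), a serpin that restrains melanization, and the secreted Nimrod proteins NimB1 (0.84) and NimB2 (0.36) rose. PPO1, a prophenoloxidase made by crystal cells, fell from 269, 250.3 and 345 to 111, 178 and 169 (log2 change -0.93, SE 0.25, adjusted p = 0.0299 by limma). This call was lost in 5 alternatives, among them DESeq2 and each that left out a day 15 library. Of the higher calls those of NimB1 (4 alternatives) and NimB2 (1) were lost, and without day 15 replicate 2 the count of higher genes was 2, and without day 45 replicate 2 it was 3. The 10 hemocyte markers summed to between 4245 and 4355 normalised reads at day 15 and to between 4277 and 4434 at day 45.

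Of 16 genes of the JNK and p53 responses 6 were higher and 1 lower, with a median of 0.21. Gadd45, a stress sensor upstream of JNK, went from 46.8, 51.3 and 50.1 to 115, 95.5 and 104.04 (log2 change 1.07, SE 0.14, adjusted p = 0.000116 by limma). Mmp1, a matrix metalloproteinase induced by JNK, went from 230.1, 189.5 and 227 to 532, 475 and 340.3 (log2 change 1.04, SE 0.13, adjusted p = 7.69e-05 by limma). In neither gene did the ages overlap, and for Mmp1 replicate 3 was the lowest library of day 45. The JNK phosphatase puc (0.51), the bZIP factor Xrp1 (0.38) and kay (0.33, lost in 3 alternatives), the fly Fos, also rose. Without day 15 replicate 2 the median of the list was 0.14. Of 20 DNA damage and repair genes 2 were higher (10%, beside 4.32% of all genes tested) and 0 lower. The higher ones were Irbp (0.87), a Ku subunit, and RnrL (0.86), the large subunit of ribonucleotide reductase, whose call was lost in 5 alternatives.

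Of 18 heat shock and chaperone genes 0 passed with limma, edgeR or DESeq2 and 2 had an unadjusted p under 0.05, and the abundant Hsc70-4 gave 8796, 7065 and 6982 at day 15 and 7028, 7513 and 8697 at day 45. Of 7 subunits of the cytosolic chaperonin CCT 2 were higher, CCT7 (0.47, lost in 3 alternatives) and CCT1 (0.42, lost in 10), with a median of 0.31. The count was 5 and the median 0.54 without day 15 replicate 1, and the count was 1 without replicate 1 or 3 of day 45 and 0 without day 15 replicate 2 or 3 or day 45 replicate 2. Of 17 genes of folding and stress in the endoplasmic reticulum 1 was higher, the transcription factor gene Xbp1 (0.27, lost in 4 alternatives). No call was made with limma, edgeR or DESeq2 among 33 proteasome genes, 5 of which had an unadjusted p under 0.05, or among 14 antioxidant enzyme genes, with 3. Their most abundant members, Rpn2 and Cat, overlapped between ages. Of 30 glutathione S-transferases 2 were higher (6.67%, beside 4.32% of all genes tested). They were GstT4 (0.38, lost in 3 alternatives) and GstS1 (0.31, lost in 4). Of 61 cytochromes P450 6 were higher and 3 lower, the lower count ranging from 0 without day 45 replicate 1 or 2 to 4 without day 45 replicate 3, with 1 without day 15 replicate 1 or 3.

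Of 22 genes of amino acid and one-carbon metabolism 3 were higher and 3 lower, with a median of 0.08. The count of lower genes was 1 when any single day 15 library or day 45 replicate 2 was left out, and the count of higher genes was 2 or 3 throughout. Gnmt (3R:12674608-12676084, dm6), the glycine N-methyltransferase that consumes the methyl donor S-adenosylmethionine, went from 254, 134 and 56.8 to 1115, 964 and 2011 (log2 change 3.36, SE 0.40, adjusted p = 5.26e-05 by limma). Every day 45 library lay above every day 15 library, and replicate 3 was again the highest. Ahcy, which removes the product of methylation, rose from 331, 253 and 292 to 465, 471 and 617 (log2 change 0.82, SE 0.12, adjusted p = 0.000453 by limma), and Sam-S, which makes the donor, rose by 0.32 (1072, 1011 and 1012 to 1325, 1265 and 1281), a call lost in 3 alternatives. The lower genes included glutamate dehydrogenase Gdh (-0.45, lost in 5 alternatives) and the proline dehydrogenase slgA (-0.38).

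Among carbohydrate enzymes the maltase gene Mal-B2 rose from 446, 489 and 493 to 762, 753 and 788 (log2 change 0.69, SE 0.08, adjusted p = 4.20e-05 by limma). The amylase genes Amy-p (1.25) and Amy-d (0.94), near-identical copies, were higher. Both calls were lost without day 15 replicate 2 or 3 or day 45 replicate 1 or 3, and that of Amy-p also without day 15 replicate 1. Gut markers, which include Amy-p, summed to between 187 and 256 normalised reads at day 15. At day 45 they summed to 437, 301 and 403 in replicates 1, 2 and 3. Of 6 digestive enzyme genes of the gut 0 passed with limma, 1 with edgeR and 1 with DESeq2. Their day 45 medians against the day 15 mean were 1.88, 1.30 and -1.22 in replicates 1, 2 and 3. The part of gut genes in the amylase values was not tested. Lactate dehydrogenase Ldh went from 51.6, 33.5 and 52.6 to 125, 97.2 and 90.0 (log2 change 1.18, SE 0.19, adjusted p = 0.000779 by limma) and was the single call among 15 glycolysis genes. Of 30 lipid genes 3 were higher (10%, beside 4.32% of all genes tested). They included the fatty acid synthase FASN1 at 0.74 and its regulator SREBP at 0.29, a call lost in 3 alternatives. Of 12 iron genes 2 were higher, the secreted iron carrier transferrin Tsf1 (14678, 10997 and 13309 to 22063, 19127 and 27368; log2 change 0.81, SE 0.17, adjusted p = 0.00507 by limma) and the metal transporter Mvl (0.47).

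The transcript of foxo itself was slightly higher at day 45. It stood at 372, 400.0 and 419 at day 15 and at 445, 484 and 492 at day 45 (log2 change 0.25, SE 0.08, adjusted p = 0.0494 by limma), with no overlap. The call lay next to the threshold and was lost in 11 alternatives, among them each of the 6 that left out a day 15 or day 45 library. Of 13 FOXO targets taken from the literature 4 were higher and 0 lower, with a median of 0.29. Thor, the translation inhibitor 4E-BP, went from 344, 392 and 429 to 523, 491 and 528 (log2 change 0.41, SE 0.11, adjusted p = 0.022 by limma). Ilp6, an insulin-like peptide of the fat body, rose by 0.55, puc by 0.51 and Sesn, a stress-induced inhibitor of TOR, by 0.34. The calls of Thor and Ilp6 were lost in 3 alternatives each and that of Sesn in 7, and the count was 1 without replicate 1 of either age and 2 without day 15 replicate 2 or 3. ImpL2, which binds insulin-like peptides and lowers their signalling, fell from 416, 394 and 424 to 283, 328 and 292 (log2 change -0.45, SE 0.10, adjusted p = 0.0105 by limma). Of the other insulin pathway genes, Ilp2 of the brain's insulin-producing cells (286, 264 and 299.9 to 250.1, 272 and 251) and the kinase gene Akt (349, 351 and 340.0 to 392, 391 and 372) did not pass.

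Genes of phototransduction were lower at day 45. Of 25 tested 18 were lower and 0 higher (72.0%, beside 4.18% lower of all genes tested), and all 25 changes were below 0, with a median log2 change of -0.49. The main rhodopsin, Rh1, is encoded by ninaE (3R:19886255-19888206, dm6), which gave 125146, 116639 and 119728 normalised reads at day 15 and 48928, 64878 and 94069 at day 45. The day 15 libraries lay close together, while those of day 45 were widely spread and all lay lower (log2 change -0.85, SE 0.19, adjusted p = 0.0095 by limma). Arr1, an arrestin that ends the rhodopsin signal, went from 38072, 35132 and 36824 to 15652, 19616 and 24406 (log2 change -0.91, SE 0.15, adjusted p = 0.000945 by limma), and Arr2, its more abundant counterpart, from 53178, 49474 and 47567 to 21183, 27291 and 41958 (log2 change -0.79, SE 0.18, adjusted p = 0.00947 by limma).

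The same spread was seen in other members. The lipid phosphatase gene laza went from 448, 484 and 429 to 166, 177 and 339 (log2 change -1.07, SE 0.18, adjusted p = 0.0011 by limma) and inaD, the scaffold of the signalling complex, from 2527, 2375 and 2078 to 1012, 1125 and 1916 (log2 change -0.84, SE 0.16, adjusted p = 0.00311 by limma). In all of these replicate 1 of day 45 was lowest and replicate 3 highest. The per-library medians of the list were -0.67, -0.43 and -0.25 for replicates 1, 2 and 3, and without replicate 3 the median was -0.58 with 19 genes lower. The 7 members that did not pass included the channel gene trp (8096, 7342 and 7957 to 6272, 7825 and 7389, log2 change -0.13) and the diacylglycerol kinase gene rdgA (-0.03). The summed level of the 10 photoreceptor markers was 233091 to 249589 normalised reads at day 15 and 110121 to 192536 at day 45, with 5 of the 10 lower. These markers include ninaE, Arr1, Arr2, inaD and trp, so the sum largely repeats the result above and is no separate measure of photoreceptor content.

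Not every gene of the eye followed. Of 13 genes of other rhodopsins and of visual pigment supply 2 were lower and 1 higher. The retinoid-binding protein gene pinta fell (-0.72), as did the carotenoid receptor ninaD (-0.66), while Rdh1 rose (0.70). Rh3, the ultraviolet opsin of some inner photoreceptors, gave 4512, 4161 and 4455 at day 15 and 4535, 4787 and 5119 at day 45, and Rh4, the opsin of other inner photoreceptors, 5219, 4957 and 5319.6 and 2824, 5456 and 6292. Neither passed, and for Rh4 only replicate 1 of day 45 lay below the day 15 libraries. Of 21 genes of eye structure 3 were lower. Hdc, which makes the photoreceptor transmitter histamine, fell from 308, 296 and 307 to 157, 156 and 232 (log2 change -0.77, SE 0.12, adjusted p = 0.000653 by limma). The gene t, also called tan, which restores histamine for reuse, was lower (-0.83) with 1 overlapping library, a call lost in 4 alternatives. Among the 10 named genes of largest decrease were also the tetraspanin Tsp42Ej (-0.92), which takes part in lysosomal breakdown of rhodopsin, the endocytic epsin lqf (-0.89), the myosin-binding M7BP (-0.96) and se (-0.92), an enzyme of red eye pigment synthesis.

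**Figure D3:**
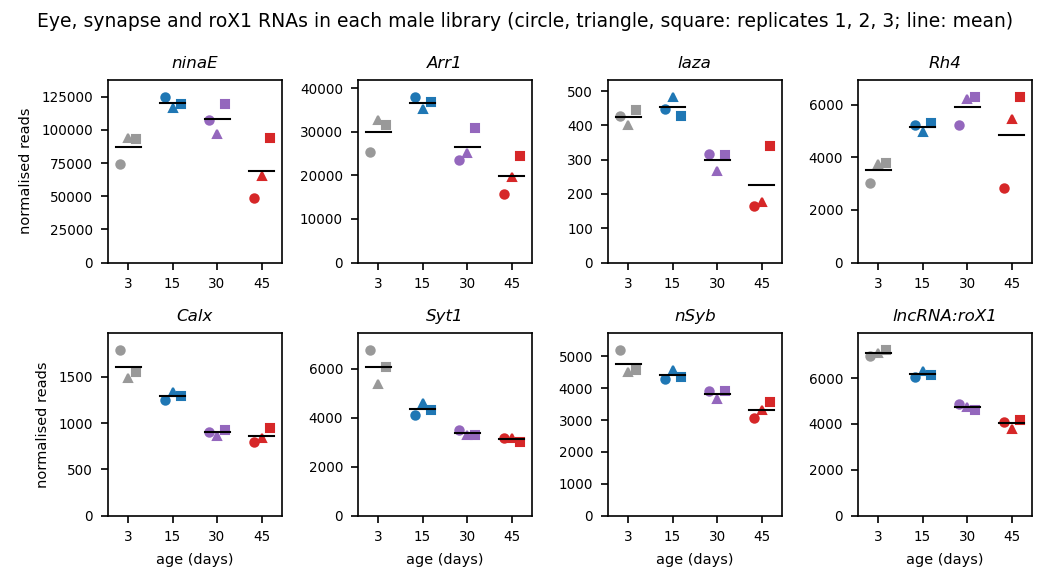
Normalised reads of 8 RNAs of the eye, of synapses and of dosage compensation in each of the 12 male libraries by age in days; circles, triangles and squares are replicates 1, 2 and 3 and the line is the mean. ninaE, Arr1 and laza are lower at day 45 with replicate 3 highest of that age, Rh4 overlaps between ages, and the synaptic genes and lncRNA:roX1 fall with little spread.

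Genes of synaptic transmission were lower by smaller amounts. The standard deviation of the day 45 library medians was 0.10 for vesicle release and 0.14 for transmitter receptors, beside 0.21 for phototransduction. The changes themselves were smaller too, so this does not show a more even fall. Of 25 genes of synaptic vesicle release 10 were lower and 0 higher, 24 of the 25 changes were below 0, and the median was -0.25. Complexin, encoded by cpx, which clamps vesicle fusion, went from 8869, 9473 and 9251 to 6103, 6061 and 6839.6 (log2 change -0.54, SE 0.09, adjusted p = 0.00102 by limma). The calcium sensor Syt1 went from 4100.3, 4589 and 4333 to 3180.3, 3191 and 2996 (log2 change -0.47, SE 0.08, adjusted p = 0.00175 by limma). Ages did not overlap in either gene. The fusion protein nSyb (-0.41), the NSF ATPase comt (-0.45) and the endophilin EndoA (-0.39) were lower as well.

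Of 28 ion channels and pumps 8 were lower and 1 higher, with a median of -0.23. Without day 15 replicate 2 or 3 the lower count was 3 and without day 45 replicate 2 it was 4. The sodium pump subunit nrv3 went from 4868, 5224 and 5356 to 3612, 3502 and 3709 (log2 change -0.51, SE 0.09, adjusted p = 0.00171 by limma), and the calcium-activated potassium channel SK (-0.45) and the voltage-gated channel NaCP60E (-0.45, lost in 4 alternatives) were lower. The inward rectifier potassium channel Irk1 was higher (77.3, 94.3 and 108 to 192, 198 and 113, log2 change 0.81, lost in 4 alternatives). Of 37 transmitter receptors 5 were lower and 0 higher, led by the nicotinic receptor subunits nAChRbeta1 (-0.48, lost in 1 alternative) and nAChRalpha4 (-0.46). Without day 15 replicate 2 the count was 2, and the list median of -0.17 moved to -0.07 without day 45 replicate 3 and to -0.27 without day 45 replicate 1. Of 18 genes of transmitter synthesis and transport 2 were lower, Gad1 (-0.52), which makes GABA, and the glutamate transporter VGlut (-0.33, lost in 2 alternatives). Ank2, an ankyrin of axons and synapses, fell from 4374, 4635 and 4167 to 2683, 2580.3 and 3768 (log2 change -0.57, SE 0.12, adjusted p = 0.00746 by limma).

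Libraries of day 45 differed in these genes too. Per-library medians of the vesicle release list were -0.21, -0.17 and -0.37 for replicates 1, 2 and 3, so that replicate 3 had the lowest median, and without it the median was -0.20 with 10 genes lower. In cpx, nrv3 and Ank2, in contrast, replicate 3 was the highest library of day 45. The 9 neuronal markers summed to between 15797 and 17210 normalised reads at day 15 and to between 12349 and 12729 at day 45, with 5 of them lower. They include nSyb, Syt1, Gad1 and VGlut, which were given above as lower, so this sum is not separate from those results. The 10 glial markers summed to between 12025 and 12540 and between 12144 and 13058, with 2 higher. Of 26 genes of glia and the blood-brain barrier 4 were higher, among them AnxB9 (0.51) and the G protein regulator loco (0.46, lost in 2 alternatives), and 2 lower. Without day 15 replicate 2 the higher count was 1, and the lower count was 0 without day 45 replicate 1 and 1 without day 15 replicate 3. Of 30 neuropeptide genes 2 were higher and 1 was lower (together 10%, beside 8.5% of all genes tested). The higher ones were corazonin, Crz (124, 121 and 119 to 175, 188 and 169, log2 change 0.54), and FMRFa (0.70, lost in 4 alternatives).

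Respiratory chain genes shifted down by little. Of 32 complex I genes 3 were lower (9.38%, beside 4.18% of all genes tested) and 0 higher. In this list 29 of the 32 changes were below 0, with a median of -0.17. For complexes II to V 5 of 36 were lower and 0 higher, 35 changes were below 0 and the median was -0.18. That count was 11 without day 45 replicate 3, 1 without day 45 replicate 1 and 2 when any single one of the 4 other libraries was left out. The cytochrome oxidase subunit COX8 fell by -0.41 on the log2 scale. Per-library medians for complexes II to V were -0.32, -0.21 and 0.00, so the shift was not seen in replicate 3. Of 16 genes of the TCA cycle 0 passed with limma or edgeR and 1 with DESeq2, 5 had an unadjusted p under 0.05, and the median was -0.10. Of 79 cytosolic ribosomal protein genes 1 was higher, RpS20 (0.31), and the median was 0.10, while 1 of 70 mitochondrial ribosomal protein genes, mRpL1 (-0.39), was lower. The call of mRpL1 was lost in 10 alternatives, among them every one that left out a library of these ages, and that of RpS20 in 4. The elongation factor gene eEF1alpha2 fell from 3319, 3176 and 3401 to 2300.1, 2451 and 2559.8 (log2 change -0.44, SE 0.07, adjusted p = 0.000516 by limma). Of 16 proton pump genes the subunits VhaM9.7-a (-0.61), VhaAC45RP (-0.58) and Vha68-1 (-0.40) were lower and Vha68-2 was higher (0.30, lost in 2 alternatives).

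Of 15 RNAs encoded in mitochondria 3 were lower (20%, beside 4.18% of all genes tested) and 0 higher. The lower ones were both ribosomal RNAs and the subunit gene mt:ND2 (-0.93), whose call was lost in 7 alternatives, among them DESeq2 and the fit of the 6 libraries alone. The large ribosomal RNA mt:lrRNA, the most abundant RNA of the libraries, went from 141454, 138836 and 154787 to 93325, 88757 and 105964 (log2 change -0.60, SE 0.14, adjusted p = 0.0158 by limma), and mt:srRNA changed by -0.62. The most abundant mitochondrial mRNA, mt:CoI, overlapped between ages (51205, 50951 and 54577 and 46307, 50024 and 53632). Libraries were made from polyadenylated RNA, so these values follow the polyadenylated share of each RNA.

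Both roX RNAs, the non-coding RNAs of the complex that raises transcription of the male X chromosome, fell. lncRNA:roX1 (X:3857230-3862697, dm6) went from 6066, 6289 and 6139 to 4098, 3773 and 4189 (log2 change -0.62, SE 0.07, adjusted p = 4.20e-05 by limma). lncRNA:roX2 (X:11579065-11580432, dm6) went from 193, 204 and 189 to 108, 106 and 127 (log2 change -0.78, SE 0.10, adjusted p = 7.42e-05 by limma). The libraries of an age lay close together in both, and the ages were far from overlapping. The 6 protein genes of the dosage compensation list did not pass, for example mle at 515, 509 and 552 and 570.1, 551 and 595. Over the 1443 X-linked genes tested the median log2 change was -0.02, with 44 higher and 59 lower. On chromosome 4, 7 of 84 genes were lower and 0 higher with a median of -0.08, and on arm 2R, which holds most antimicrobial peptide and Bomanin genes, 121 of 1800 were higher and 73 lower.

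Single genes of further groups changed strongly. Of 25 odorant-binding proteins 3 were higher and 1 lower, and Obp56a rose from 23.9, 23.0 and 30.1 to 112, 93.9 and 108 (log2 change 1.99, SE 0.21, adjusted p = 2.35e-05 by limma). Of 25 muscle genes 3 were higher and 2 lower, with Act57B, a muscle actin, going from 1149, 1214 and 1247 to 1879, 1969 and 2318 (log2 change 0.77, SE 0.12, adjusted p = 0.000475 by limma). Of 19 cuticle genes 4 were lower and 0 higher, and Cpr49Ag, the named gene of largest decrease among those with a mean of at least 50, went from 100.3, 82.7 and 87.7 to 26.0, 36.9 and 55.3 (log2 change -1.24, SE 0.20, adjusted p = 0.000689 by limma). Of 17 clock genes cwo, a repressor in the clock, was higher (0.69) with day 45 replicate 3 at 260 among the day 15 values, and 3 were lower, among them the clock-controlled gene to (-0.52). The call of to was lost in 8 alternatives and that of cwo in 7. The serum protein gene Lsp1alpha rose from 16.2, 5.24 and 3.34 to 46.6, 44.4 and 76.9 (log2 change 2.83, SE 0.53, adjusted p = 0.00258 by limma), while the yolk protein genes Yp2 and Yp3 overlapped between ages. Of 12 genes of imaginal disc growth factors and chitinases 2 were higher, Idgf3 (0.43) and Idgf4 (0.34, lost in 5 alternatives).

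**Figure D4:**
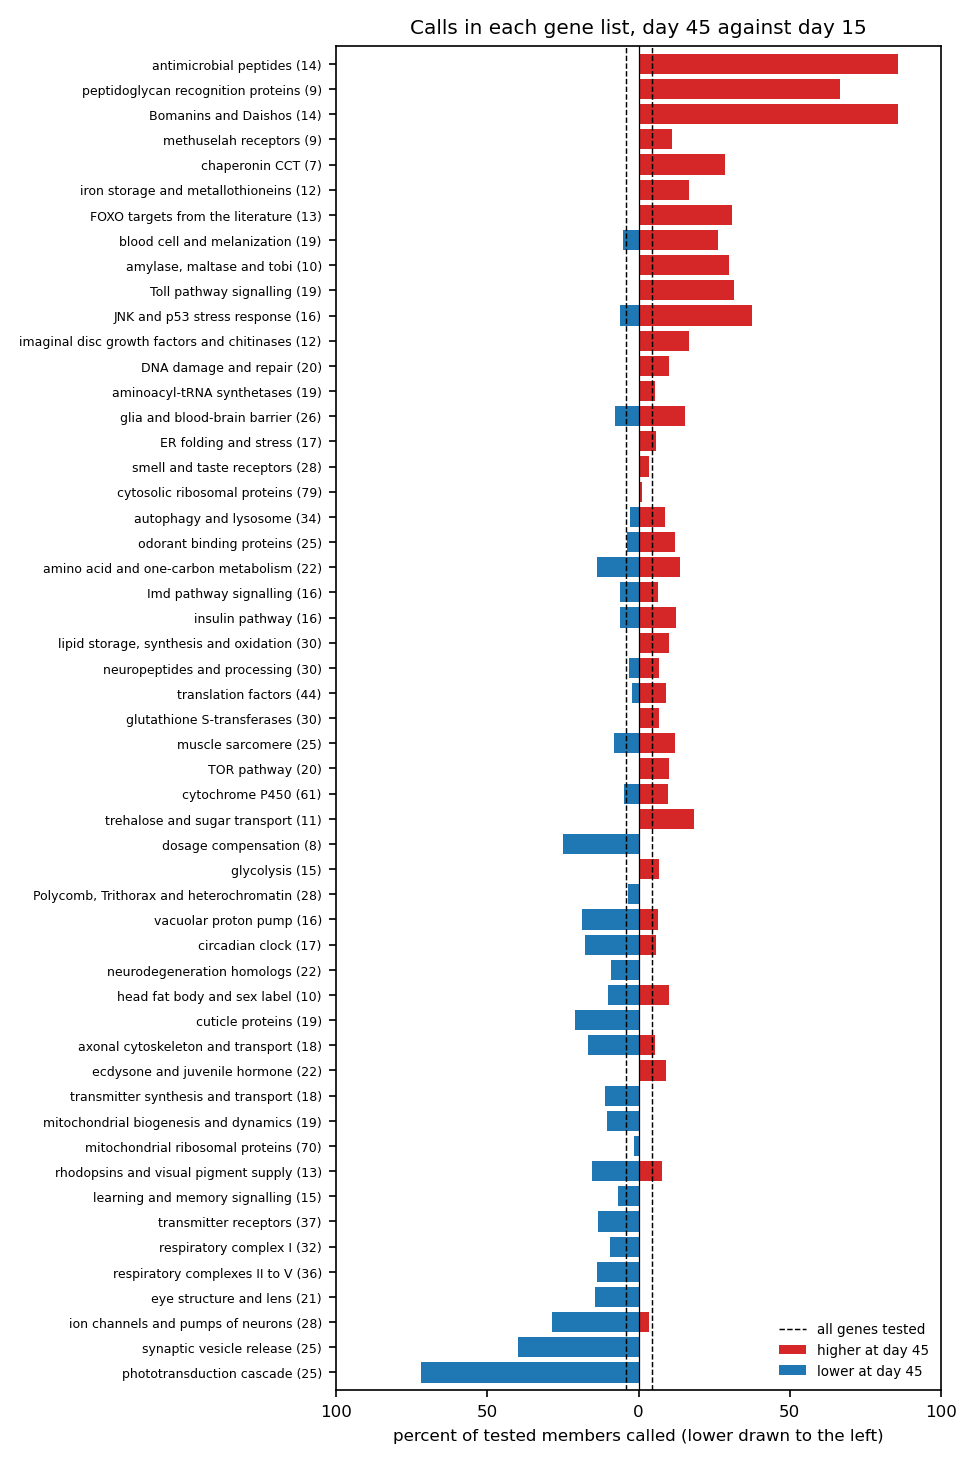
Percent of the tested members of each gene list that were higher (right) or lower (left) at day 45, for the 53 lists with at least 7 tested members and at least 1 call; numbers in brackets are tested members and dashed lines mark the shares over all genes tested, 4.32% and 4.18%. Lists are ordered by their median log2 change, with antimicrobial peptides at one end and phototransduction at the other.

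The day 30 libraries were used to place the called changes on the time course. Of the 385 higher genes 361 had a day 30 mean between those of day 15 and day 45 on the log2 scale, and of the 373 lower genes 333. By day 30 a median of 55.9% of the rise and 67.2% of the fall had been reached. These genes were called for their difference between day 15 and day 45, which by itself makes a day 30 mean between them likely. The day 15 libraries also enter both parts of each share, so these values describe the called genes and test no timing. For antimicrobial peptides the list median relative to day 15 was 1.40 at day 30 and 3.22 at day 45, for phototransduction at -0.17 and -0.49, and for synaptic vesicle release at -0.23 and -0.25. A test of unequal change in the intervals from 15 to 30 and from 30 to 45 days called 6 genes (0.0673% of those tested, with 661 at an unadjusted p under 0.05), and of these 3 ages all 6 were highest at day 30. The metallothionein gene MtnA, which binds copper and zinc, averaged 2741 at day 15, 6417 at day 30 and 3473 at day 45 (limma adjusted p = 0.00849). The others were the calnexin Cnx99A, MtnD, the cytochrome P450 Cyp309a1, the secreted phospholipase GIIIspla2 and the small heat shock gene Hsp26. Without day 30 replicate 3 the count was 0 and without day 30 replicate 2 it was 2.

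The changes after day 15 were also set beside those before it. The intervals differ in length, and both use the day 15 libraries. A shift of the day 15 mean moves the 2 changes in opposite directions. Selecting genes by the difference therefore favours those that turn at day 15, and their number tests no reversal. The difference between the 2 changes was called for 98 genes (1.1%), of which 58 were lower at day 15 than at day 3 and higher again afterwards, 23 were higher at day 15 and lower afterwards, and 17 moved in the same direction in both intervals. This count ranged from 14 without day 15 replicate 2 to 215 without day 45 replicate 3, and was 39 and 56 without replicates 1 and 3 of day 15 and 52 without replicate 1 of day 45. No day 3 library was left out.

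Named genes had means of both kinds, with the limit given above. The opsin gene ninaE averaged 87261 at day 3, above which it stood at day 15 (120504) before it fell, and pinta averaged 140.4 at day 3, 299 at day 15 and 183 at day 45 (limma adjusted p of the difference = 0.00191; for ninaE it was 0.0653). The muscle genes Act57B and Mlp84B had means of 1815 and 680.0 at day 3, 1203 and 302 at day 15 and 2055 and 432 at day 45 (limma adjusted p = 0.00329 and 0.00196). The muscle list as a whole had a median log2 change of -0.84 before and of 0.04 after day 15. Synaptic vesicle genes had medians of -0.31 and -0.25, and antimicrobial peptides of 1.03 and 3.22.

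Genes that differed between foxo mutant and wild-type females were followed through the same interval. The authors' deposited table of that comparison comes from other libraries, of females at day 3. Whether its differences are direct effects of foxo was not tested. The transcript of foxo itself was called higher in the mutant there (log2 change 0.33). Of the genes tested here 8565 had an adjusted p in the authors' deposited table, of which 624 were lower in the mutant (7.29%) and 562 higher (6.56%). Of the 624 genes lower in the mutant 102 were lower at day 45 than at day 15 (16.3%, beside 4.19% of the 8565) and 31 were higher (4.97%, beside 4.18%), with a median log2 age change of -0.10. Of the 562 genes higher in the mutant 63 were higher with age (11.2%) and 22 lower (3.91%), with a median of 0.12. The 102 shared lower genes were 28.4% of the 359 age-related decreases in this set, and the 63 shared higher genes 17.6% of the 358 increases. Of the 7379 genes called in neither direction in the mutant 264 were higher and 235 lower with age, 3.58% and 3.18%. The 37 genes at least 2-fold lower in the mutant did not share the downward median. With age 5 of them were higher (13.5%) and 3 lower (8.11%), with a median of 0.15. Of the 49 genes at least 2-fold higher in the mutant 7 were higher (14.3%) and 2 lower (4.08%) with age, with a median of 0.21. The sexes and ages differ between these data sets, and no test of the overlap was made.

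Genes lower in both included 8 of the 25 phototransduction genes and 5 of the 25 synaptic vesicle genes, beside 102 of all 8565 (1.19%). Of the phototransduction genes 18 were lower with age and 10 in the mutant, and of the synaptic vesicle genes 10 and 13. The share over all genes does not allow for these high counts in each comparison alone, so it does not show a link between them. The receptor subunit nAChRalpha4 was at a log2 change of -0.81 in the mutant in the authors' deposited table and of -0.46 with age. In the authors' deposited table NaCP60E was at -0.44, Ank2 at -0.43, Syt1 at -0.25 and Gad1 at -0.29. Genes higher in both included 2 of 9 antimicrobial peptides, 3 of 13 Bomanins and Daishos, 2 of 9 peptidoglycan recognition proteins and 3 of 19 Toll pathway genes, beside 63 of all 8565 genes (0.736%). In the order of these lists 7, 12, 6 and 6 genes were higher with age, and 4, 4, 2 and 5 were higher in the mutant. The same limit applies to the share over all genes here. PGRP-SA was at 1.07, Dso2 at 0.92 and mthl2, a methuselah-like receptor, at 1.07 in the authors' deposited table, beside age changes of 0.86, 0.94 and 0.93. Of 9 antimicrobial peptide genes that had an adjusted p there, 4 were higher in the mutant and 0 lower in the authors' deposited table. CecC (0.77) and Def (0.71) were higher in both, while Dro at 0.10 and AttC at 0.08 were not called in the authors' deposited table. CecA2, DptB, Mtk and AttB had no adjusted p in the authors' deposited table.

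Some genes of metabolism and of the insulin pathway went opposite ways. In the authors' deposited table Ldh was at -1.24, Sesn at -0.85, Ilp6 at -0.76 and GstS1 at -0.75 in the mutant, and all of them were higher at day 45, with the losses of age calls given above for the last 3. ImpL2 at 1.09 and to at 1.02 were higher in the mutant in the authors' deposited table and lower with age, the age call of to being lost in 8 alternatives and that of ImpL2 in 1. Of the abundant photoreceptor genes, ninaE (0.04), Arr1 (0.15) and Arr2 (0.18) were not called in the authors' deposited table, and laza was higher there (0.41). Both roX RNAs are male-specific and their values in the females carry no information on age.

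**Figure D5:**
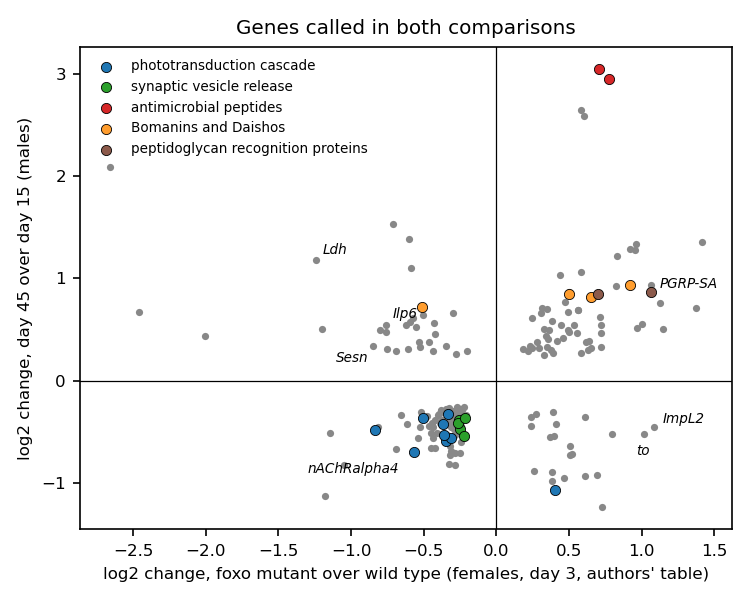
Each point is 1 of the 218 genes called both between foxo mutant and wild-type females in the authors' deposited table (log2 change, x axis) and between day 15 and day 45 in males (log2 change, y axis); members of 5 lists are coloured. The lower left holds 102 genes and the upper right 63, while 31 genes, with Ldh, lie at the upper left and 22, with ImpL2, at the lower right.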

How the data were processed

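Per the labels' protocols, whole-head RNA was isolated by Trizol, selected for poly(A) tails and turned into libraries with an NEBNext Ultra kit; whether it marks strand is not said. Per the submitters' processing notes, the tools STAR, HTSeq and DESeq and the build dm6 were used, and their versions and settings are not given in the sources used here. Male values deposited by the authors are normalised counts per gene, a signal with a separate scale for each library: in each of the 12 libraries 100% of the values were whole multiples, within 0.001 reads, of the value of 1 read (0.836 to 1.22), which gave the recovered reads. Columns of 0 other samples were found. For the females the authors deposited a log2 fold change with a test statistic (a score), a p-value and an adjusted p-value per gene. Whether shrinkage was applied is not stated.

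The deposited values were tested as log2(value + 1) with limma 3.58.1 (trend) in R 4.3.3, in 1 model of the 4 male ages without a replicate block, with Benjamini-Hochberg adjustment over the 8921 genes with at least 10 in at least 3 of 12 libraries. Fold changes on this scale understate changes of low genes. Contrasts were day 45 minus day 15, the difference between the changes from day 15 to 30 and from day 30 to 45, and the difference between the changes before and after day 15. Gene lists were described by counts and medians only, with no set test. Alternatives were edgeR 4.0.16 and DESeq2 1.42.0 on recovered reads, TMM scaling, other filters and pseudocounts, fewer libraries and a slope over days. Each library of days 15, 30 and 45, but none of day 3, was also left out in turn. Gene names came from the Ensembl BDGP6 annotation (10701 of 10884 identifiers), and of 10480 names of the females 8340 matched by symbol and 2031 by synonym, less 20 duplicates.

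The comparison, the 64 gene lists and the tests were chosen with earlier results of these data known. Named genes were foxo; the 10 given names of largest change each way among calls averaging at least 50 without overlap; the 3 largest under any name; for each list up to 5 calls averaging at least 20 where at least 25% were called and otherwise up to 2, or the most abundant member; and the 5 genes of smallest p each way in the test of both intervals after day 15. Drsl4, Drsl5, CecC, Def, PGRP-LC, trp, rdgA, ninaD, Rh3, Rh4, Ilp2, Akt, mle, Yp2, Yp3, mt:lrRNA, mt:srRNA, mt:CoI, Hsp26 and the genes under other observations fall outside this rule and were named after their values were seen. Exact intervals or floors per gene are not given because each value has 3 replicates.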

Additional observations from a re-analysis of the deposited data

Results flagged for a closer look

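In 6 genes the change from day 30 to 45 differed from that from day 15 to 30 (limma adjusted p under 0.05 for the difference), and of these 3 ages all 6 stood highest at day 30. The difference of the 2 log2 changes was -1.15 for the chaperone gene Cnx99A (means of 796, 1249 and 881 normalised reads at days 15, 30 and 45) and -2.05 for MtnA. It was -1.66 for Cyp309a1 (122, 215 and 118), -1.03 for GIIIspla2 (171, 211 and 127), -4.13 for MtnD (5.15, 34.1 and 10.8) and -3.41 for Hsp26 (23.3, 102 and 31.5). Without day 30 replicate 3 limma called 0 genes, and without day 30 replicate 2 it called 2.

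For 17 named genes the change after day 15 differed from that before it, over intervals of unequal length that share the day 15 libraries. The log2 change from day 15 to 45 minus that from day 3 to 15 was 4.45 for Dro, 3.74 for PGRP-SC2, 3.12 for Gnmt and 2.93 for Mtk, which stood low at both early ages. It was 1.10 for BomBc3, 1.14 for BomS1, 1.13 for BomS2, 1.19 for BomS3 and 1.04 for Dso2. It was 1.02 for Mmp1 and 0.63 for the cathepsin gene CtsL1, and among muscle genes 1.34 for Act57B and 1.64 for Mlp84B. Negative differences were found for Arr1 (-1.21), pinta (-1.83), M7BP (-1.18) and CG42329 (-1.79), whose means were higher at day 15 than at day 3 and lower at day 45.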

How the results depend on the processing

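Leaving out 1 library of day 15 or 45 at a time gave 219 to 340 higher and 183 to 381 lower genes, and 62 to 82 higher and 10 to 42 lower ones past 2-fold. It gave 14 to 215 genes whose change differed from that before day 15. With day 30 libraries also left out in turn, 0 to 8 genes had unequal change in the intervals before and after day 30. No day 3 library was left out. A filter at 50 left 45 higher and 5 lower genes past 2-fold, a pseudocount of 10 left 6 lower genes past 2-fold, and a filter over the 6 libraries left 3 with unequal change. The other counts stayed within 1.5 times the reported ones, for example 437 higher and 365 lower with edgeR, 318 and 281 with DESeq2 and 380 and 368 with TMM scaling. With the replicate number as a block 346 genes were higher and 331 lower. Same-numbered libraries correlated at -0.25 to 0.15 in their deviations from the group means, and differently numbered ones at -0.18 to 0.30. The labels name no pairing, and these correlations cannot exclude a shared source behind the numbers. Of 135 named genes called, 76 kept the call in every alternative and 59 lost it in at least 1. Genes that were not called and changed sign when 1 library was left out were Hsc70-4 (-0.0592 to 0.14), Rfx (-0.15 to 0.0191), ple (-0.00501 to 0.23), Cat (-0.0570 to 0.0137), Rpn2 (-0.0230 to 0.10), Cyp309a1 (-0.20 to 0.0154) and TotA (-0.12 to 0.36); the cause was not tested. At 2999956 to 4102364 reads a library, changes of genes below 10 normalised reads were not examined.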

Other observations

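Of the 758 called genes 202 belonged to a gene list and 556 to none. The smallest adjusted p of all belonged to the long non-coding RNA gene lncRNA:CR31781 (2L:16869346-16878300, dm6), which stood at 342, 336 and 348 normalised reads at day 15, averaged 715 at day 30 and stood at 902, 935 and 852 at day 45 (log2 change 1.39, SE 0.08, adjusted p = 5.52e-08 by limma). The spread within each age was small beside the difference. Without strand, reads of overlapping genes cannot be told apart from its own. In the authors' deposited table it was lower in the foxo mutant (log2 change -0.60).

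Arc1, a neuronal gene whose protein forms capsids that carry RNA between cells, went from 564, 320.5 and 489.6 to 1529, 1469.9 and 1128 (log2 change 1.61, SE 0.17, adjusted p = 2.35e-05 by limma), with no overlap between ages. Its neighbour and relative Arc2 went from 31.5, 31.4 and 20.1 to 66.3, 52.8 and 60.7 (log2 change 1.11, SE 0.26, adjusted p = 0.0132 by limma). Both rose, beside 10 lower and 0 higher genes of synaptic vesicle release. Listericin, an antibacterial gene outside the lists, went from 373, 324 and 329 to 889, 761 and 1334 (log2 change 1.50, SE 0.17, adjusted p = 4.20e-05 by limma), with replicate 3 highest at day 45 as for DptA, AttC and Mtk. The unconventional myosin gene Myo31DF rose from 182, 198 and 197 to 382, 336 and 380.4 (log2 change 0.92, SE 0.09, adjusted p = 1.22e-05 by limma), and the lysyl oxidase gene Loxl2, whose enzyme crosslinks collagen, fell from 73.5, 63.9 and 68.5 to 33.2, 26.0 and 28.2 (log2 change -1.21, SE 0.17, adjusted p = 0.000239 by limma). All of these were chosen after their values were seen.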
